A study of Mus musculus with 16 samples.

Results

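The 6 genes described here, Ncl, Npm1, Nop56, Nop58, Fbl and Nolc1, encode proteins of the nucleolus, and they were picked by name as a nucleolar set that includes nucleolin. They held 12767 of the 11380784 break ends that 16 libraries placed on the main mouse chromosomes, which is 0.112%, and they are 6 of 32093 protein-coding and long noncoding genes of the GENCODE M21 annotation. The choice was made with earlier results of these libraries known, so their density of ends is given below as a description.

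The libraries were made by BLISS, a method that blunts free DNA ends inside fixed cells and ligates adapters to them, so that sequencing reports where each end lay. The cells were AB22, a mouse malignant mesothelioma line. Cells with a doxycycline-inducible hairpin against Hmgb1 (shHMGB1) or with a control hairpin (shCTRL) were synchronised in G1 and received 0, 3, 5 or 10 Gy from a caesium source, with 2 libraries in each of the 8 combinations. Both lines had been infected with pTRIPZ particles, selected with puromycin and given doxycycline, so these steps were shared by shHMGB1 and shCTRL cells. The labels do not say whether either line was a clone or a pool, and the hairpin and the history of its line cannot be told apart. Replicates are numbered but not said to be separate cultures, and p-values measure only the spread between these libraries. Break ends do not measure transcripts, so neither the loss of Hmgb1 nor the cell type could be checked with markers here.

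Nucleolin (Ncl) and nucleophosmin (Npm1) are among the most abundant nucleolar proteins: nucleolin binds ribosomal RNA precursors and nucleophosmin is a chaperone of ribosome assembly. Fibrillarin (Fbl) is the methyltransferase of the box C/D small nucleolar ribonucleoprotein, Nop56 and Nop58 are its paired scaffold proteins, and Nolc1 is a phosphoprotein that helps these particles mature. Small nucleolar RNAs (snoRNAs) guide chemical modification of ribosomal RNA, and many vertebrate ones are cut out of introns of genes for nucleolar or ribosomal proteins. Ncl, Nop56 and Nop58 are such host genes.

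The sequences that matter most for these genes are snoRNAs in their introns, because most ends of the 3 host genes lay there. Shown 5′ to 3′ in the direction of transcription, from GENCODE M21 transcripts on mm10, are the 2 snoRNAs with the most ends in each of Ncl, Nop56 and Nop58, and capitals mark the shortest stretch that held at least 50% of the ends of the snoRNA gene. Snord82 lies in an intron of Ncl at chr1:86356261-86356330 on the minus strand, and Gm24148 lies in another at chr1:86352008-86352087, also minus. Gm24451 (chr2:130276237-130276369, plus) and Snord57 (chr2:130278016-130278087, plus) lie in introns of Nop56. Gm26287 (chr1:59704258-59704338, plus) and Snord11 (chr1:59704790-59704873, plus) lie in introns of Nop58.
Snord82: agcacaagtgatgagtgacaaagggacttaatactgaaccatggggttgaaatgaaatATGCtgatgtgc
Gm24148: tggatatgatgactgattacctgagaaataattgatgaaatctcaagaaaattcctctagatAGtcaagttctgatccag
Gm24451: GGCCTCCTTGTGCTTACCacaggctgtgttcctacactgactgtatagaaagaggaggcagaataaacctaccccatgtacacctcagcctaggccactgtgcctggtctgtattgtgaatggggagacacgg
Snord57: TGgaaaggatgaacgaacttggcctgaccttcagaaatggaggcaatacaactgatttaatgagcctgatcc
Gm26287: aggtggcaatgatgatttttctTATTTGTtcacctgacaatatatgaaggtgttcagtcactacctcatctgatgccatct
Snord11: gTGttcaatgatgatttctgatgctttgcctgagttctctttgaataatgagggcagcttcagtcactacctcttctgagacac

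The 16 libraries held 132390 to 1020770 ends, with a median of 813725. The smallest was shCTRL 3 Gy replicate 2, where 1 end is worth the largest share of a library. Values are given as CPM, the count of ends scaled to the library's total on the main chromosomes, and densities are CPM per kb of the region. A CPM is a share of a library, so fewer ends at a gene and more ends elsewhere cannot be told apart. Densities were not corrected for copy number, mappability or base composition.

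The genes differed widely in how many ends they drew. Ncl (chr1:86344719-86359400, minus strand) held 8334 ends in all libraries together, Nop56 (chr2:130274430-130279313, plus) 2320 and Nop58 (chr1:59684971-59719044, plus) 1539. The 3 genes without an intronic snoRNA held fewer, with 325 ends in Npm1 (chr11:33152287-33163206, minus), 154 in Nolc1 (chr19:46075863-46085530, plus) and 95 in Fbl (chr7:28169710-28179269, plus). By mean density over the gene body, Ncl ranked 30 of 21938 protein-coding genes at 57.4 CPM per kb, 197 times the median gene. Nop56 ranked 34 at 46.9 CPM per kb, Nop58 197 at 4.17, Npm1 324 at 2.87, Nolc1 1016 at 1.43 and Fbl 2384 at 0.868. All 6 therefore stood above the median of 0.292 CPM per kb. When ends in snoRNA genes were left out, Ncl ranked 72 and Nop56 35, at 7.89 and 13.8 CPM per kb, but Nop58 ranked 2453 at 0.848. Nop58 thus lost its high rank without its snoRNA genes. The value of Nop56 without them still counts ends just outside their annotated edges: of its 633 remaining ends, 267 lay more than 10 bases from a snoRNA gene, against 1150 in Ncl.

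**Figure D1:**
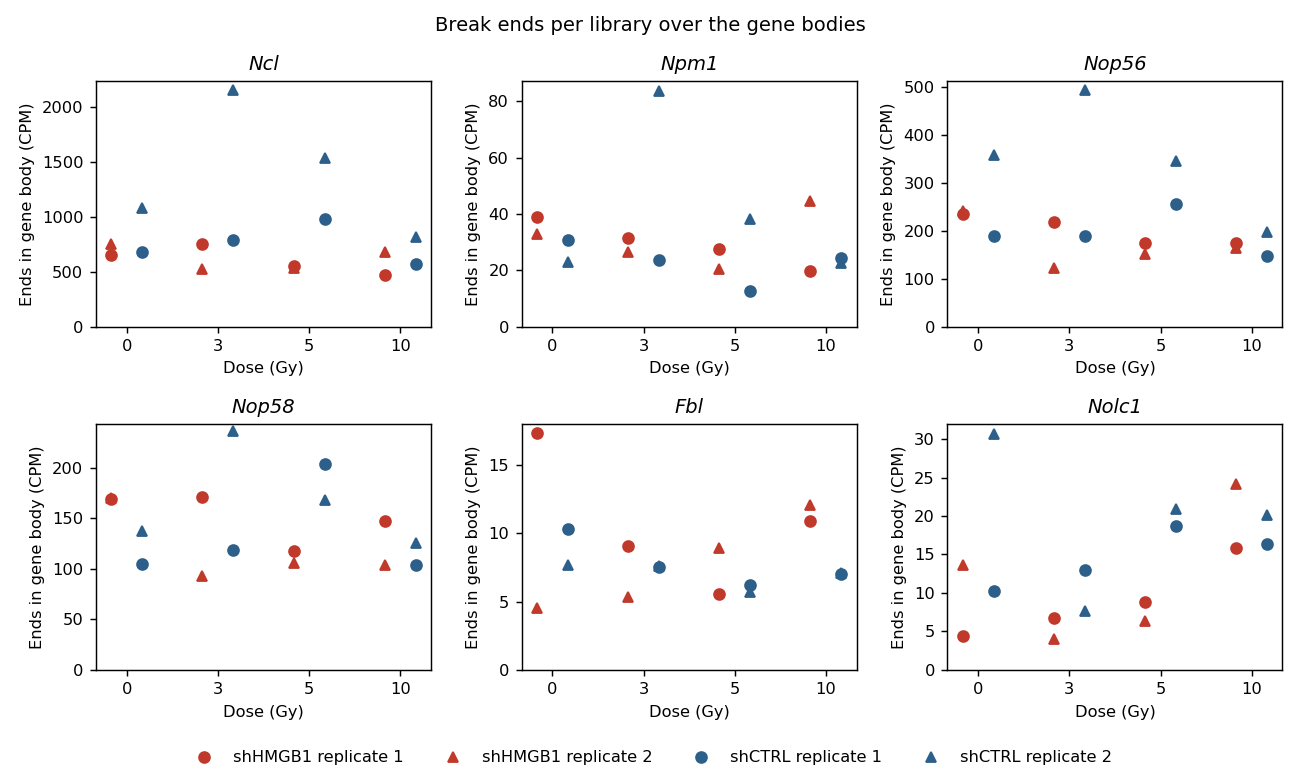
Ends over each gene body in each library, in CPM, by dose in Gy, with shHMGB1 libraries in red to the left and shCTRL libraries in blue to the right of each dose (circles replicate 1, triangles replicate 2). Ncl spans 470 to 750 CPM in shHMGB1 libraries and 567 to 2153 CPM in shCTRL libraries, and shCTRL 3 Gy replicate 2, the smallest library, is the highest for Ncl, Npm1, Nop56 and Nop58.

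Within Ncl, snoRNA genes held 85.7 ± 3.74% of the ends of a library (SD, n = 16, range 76.4% to 90.6%), exons 12.01 ± 3.33% and the rest of the introns 2.22 ± 0.581%. Snord82 alone, 70 bases long, held 6750 ends or 81.0% of all ends of Ncl, and it was present in all 16 libraries with 243 to 654 ends. Genes annotated as snoRNA or scaRNA are counted together here as snoRNA genes. Among these 1558 genes, overlapping entries counted separately, Snord82 ranked 11 by ends, with 2.40% of the 281676 ends summed over them. Its ends were not spread evenly: position 86356272, base 59 of the RNA, held 2155 of them, and the 4 bases in capitals above (59 to 62) held 51.6%. That stretch held between 45.7% and 59.3% of the snoRNA's ends in every library. The other snoRNA genes of Ncl held far fewer, with 288 ends in Gm24148 and 106 in Snora75.

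In Nop56 the 5 snoRNA genes held 72.9 ± 4.86% of the ends per library (SD, n = 16), and in Nop58 the 4 snoRNA genes held 78.8 ± 8.42%. Gm24451 led in Nop56 with 978 ends, followed by Snord57 with 372, Snord110 with 205, Gm23650 with 97 and Gm23187 with 35. Gm26287 led in Nop58 with 473 ends, followed by Snord11 with 375, Snord70 with 216 and Gm26293 with 139. In Nop56 many ends lay just outside the annotated edge, and adding 10 bases on each side brought the share to 88.5 ± 4.44%, whereas it moved that of Ncl only to 86.2 ± 3.90% and that of Nop58 to 79.1 ± 8.52%. Counting each position once, the snoRNA genes held 44.5 ± 7.52% of the distinct positions of Ncl, 72.1 ± 5.80% of those of Nop56 and 64.2 ± 12.3% of those of Nop58. Over all libraries the ends of Snord82 lay on 35 positions and those of Gm24451, a longer gene with fewer ends, on 100.

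In all 12 snoRNA genes the ends lay toward the edge with the lower genome coordinate, whichever way the gene is transcribed. In the 3 minus-strand snoRNAs of Ncl, 98.1% (Snora75), 96.9% (Gm24148) and 99.9% (Snord82) of ends lay on the low-coordinate side of the midpoint, which is the 3′ side of these RNAs. In the 9 plus-strand snoRNAs of Nop56 and Nop58 the share on that side was between 84.3% (Gm24451) and 98.4% (Snord11), and there it is the 5′ side. The densest position of Snord57 was its first base, with 128 of 372 ends, and that of Snord11 was base 3, with 169 of 375. Other snoRNA genes with at least 50 ends did likewise: most ends lay on the low-coordinate side in 119 of 121 plus-strand and in 77 of 83 minus-strand genes. The deposited lists keep no strand and do not say which edge of a read a listed position is, and the source of this asymmetry was not tested. On the transcribed strand, the letters TGATGA, as in a C box, occurred in 5 of the 12 RNAs and CTGA, as in a D box, in 11 of the 12. The shares were 26.5% and 79.3% over all 1558 annotated snoRNA and scaRNA genes.

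**Figure D2:**
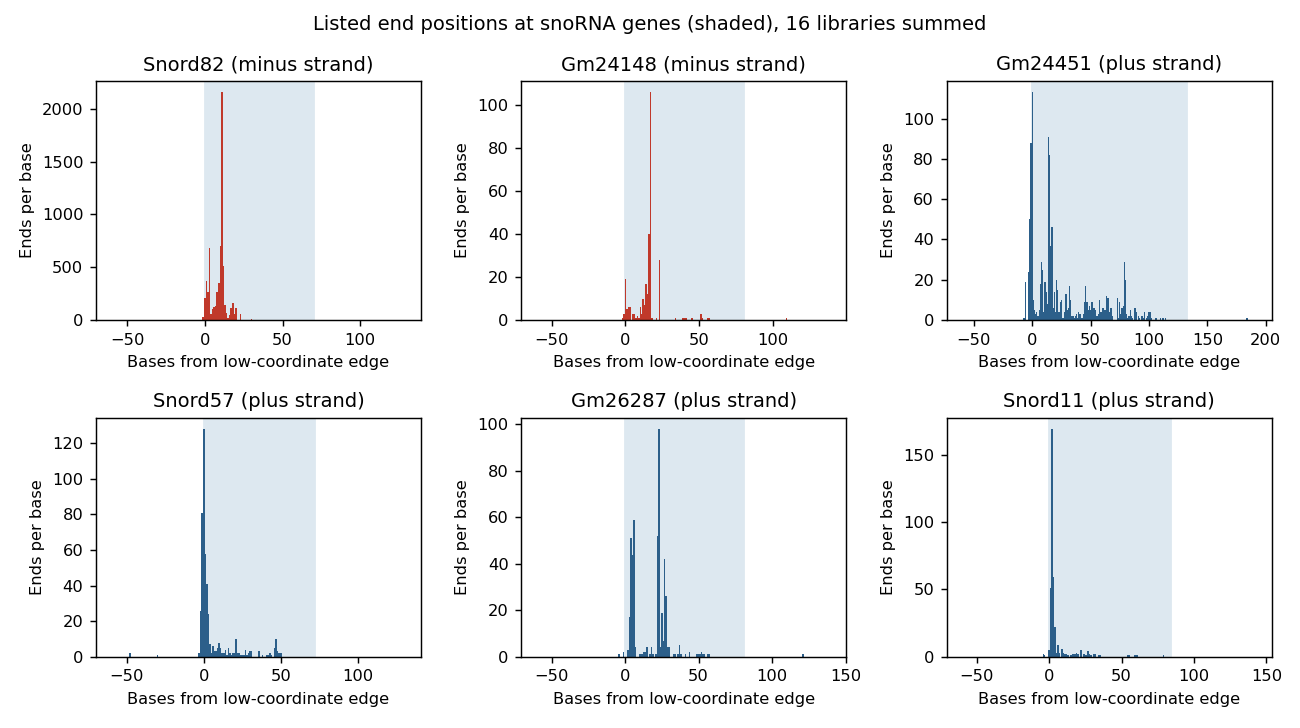
Ends per base (vertical axis, 16 libraries summed) against distance in bases from the low-coordinate edge of 6 snoRNA genes (shaded), red for the minus strand and blue for the plus strand. Ends crowd toward the left edge in both colours; in Snord82 a single position holds 2155 ends.

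Outside snoRNA genes, exons were denser than introns in all 6 genes. With the exons of 1 coding transcript per gene, all libraries summed and snoRNA genes left out with 10 bases on each side, Ncl had 108 ends per kb of exon and 42.7 per kb of intron, Nop56 101 and 31.1, and Npm1 74.1 and 21.97. Nolc1 had 23.4 ends per kb of exon and 11.4 per kb of intron, Fbl 20.1 and 8.49, and Nop58 15.3 and 7.51. For comparison, the median protein-coding gene had 0.347 CPM per kb over the exons of all its transcripts and 0.276 over its introns, where Ncl had 9.51 and 4.22, and Nop56 15.0 and 7.17. The 15.0 of Nop56 includes ends at the edges of its snoRNA genes, and without them, in the single transcripts above, Nop56 was not denser than Ncl. The count for Nop56 depends on what is called an exon, since exons of all its transcripts held 584 ends and those of the single coding transcript Nop56-202 held 190. In Nop56, 2053 ends lay inside the snoRNA genes widened by those 10 bases and 1687 inside the annotated genes.

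**Figure D3:**
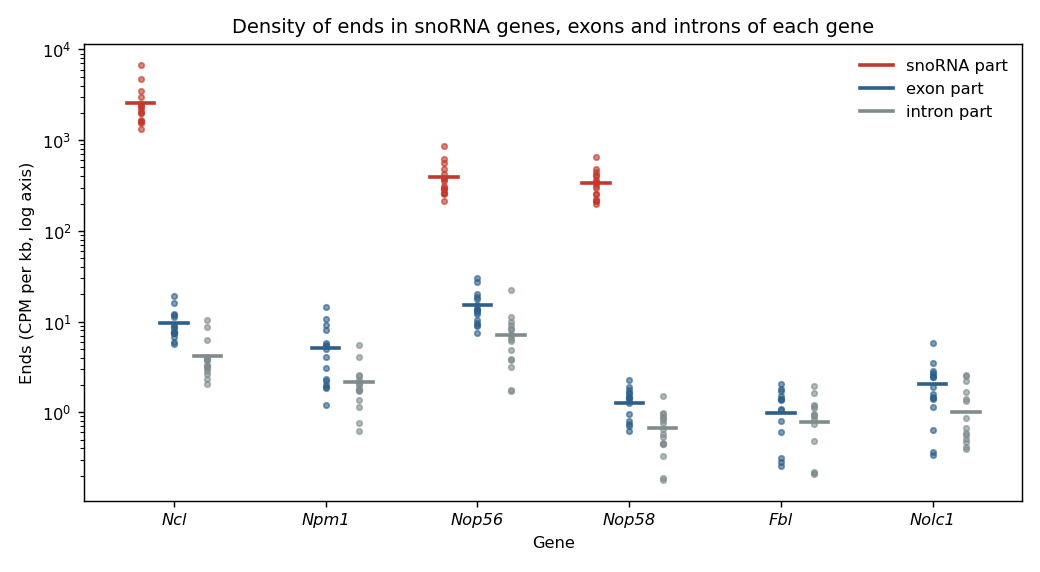
Density of ends in CPM per kb (log axis) in the snoRNA genes (red), exons (blue) and introns (grey) of each gene, with 1 point per library and lines at the mean of 16 libraries; values of 0 enter the mean and are not drawn. The snoRNA genes of Ncl lie above those of Nop56 and Nop58 in density, and Npm1, Fbl and Nolc1 have no snoRNA part.

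Among the exons of the Ncl-201 transcript, ends crowded in exons 3 and 4, which encode an acidic stretch of nucleolin. Exons 3 and 4 of Ncl held 395 and 202 ends, together 597 of the 888 ends in exons of Ncl-201, or 67.2%, on 682 of 8202 bases. The last exon, with 143 ends, makes up 5978 of those bases. Exon 4 had 1086 ends per kb and ranked 54 among 152604 exons of at least 100 bases that overlap no small RNA gene. Of its bases 75.3% are purines, and GAA or GAG occurred 14.5 times per 100 bases on the gene's strand with overlaps counted, against 4.91 in the whole transcript. In exon 3 a stretch of 30 bases held 198 of its 395 ends. These ends were less piled than those of Snord82: the densest position outside the snoRNA genes of Ncl held 42 ends in 13 libraries. Triplet content and ends did not go together in every exon of Ncl. Exon 13 had 357 ends per kb at 10.3 GAA or GAG per 100 bases and exon 2 had 179 at 11.97 per 100 bases, but exon 3 had 796 ends per kb at only 7.26. Exon 7, with 8 per 100 bases, had 32 ends per kb on 4 ends, and exon 8, with 6.45, had 16.1 on 2 ends. Exon 5, only 87 bases long and with 11.5 per 100 bases, held 7 ends. In mean density exon 5 had 6.55 CPM per kb, against 109 in exon 4 and 2.07 in the last exon.

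The densest exons of the other genes were of several kinds. In Npm1 it was the first exon, chr11:33162922-33163206, with 91 of the gene's 325 ends and some in all 16 libraries. Position 33162931 alone held 30 of those 91 ends, in 10 libraries. In Nop56 exon 1, only 47 bases long, held 39 ends, and exon 3 held 34, exon 5 held 47 and exon 6 held 40. In Nop58 the densest exon was exon 14, with 20 ends, 75.3% purines and 15.2 GAA or GAG per 100 bases. Exon 10 of Nolc1 held 42 of that gene's 154 ends, and exon 2 of Fbl held 14 of 95. The first exon was thus among the densest in Npm1 and Nop56, while the first exons of Nolc1 and Fbl held 1 and 2 ends.

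**Figure D4:**
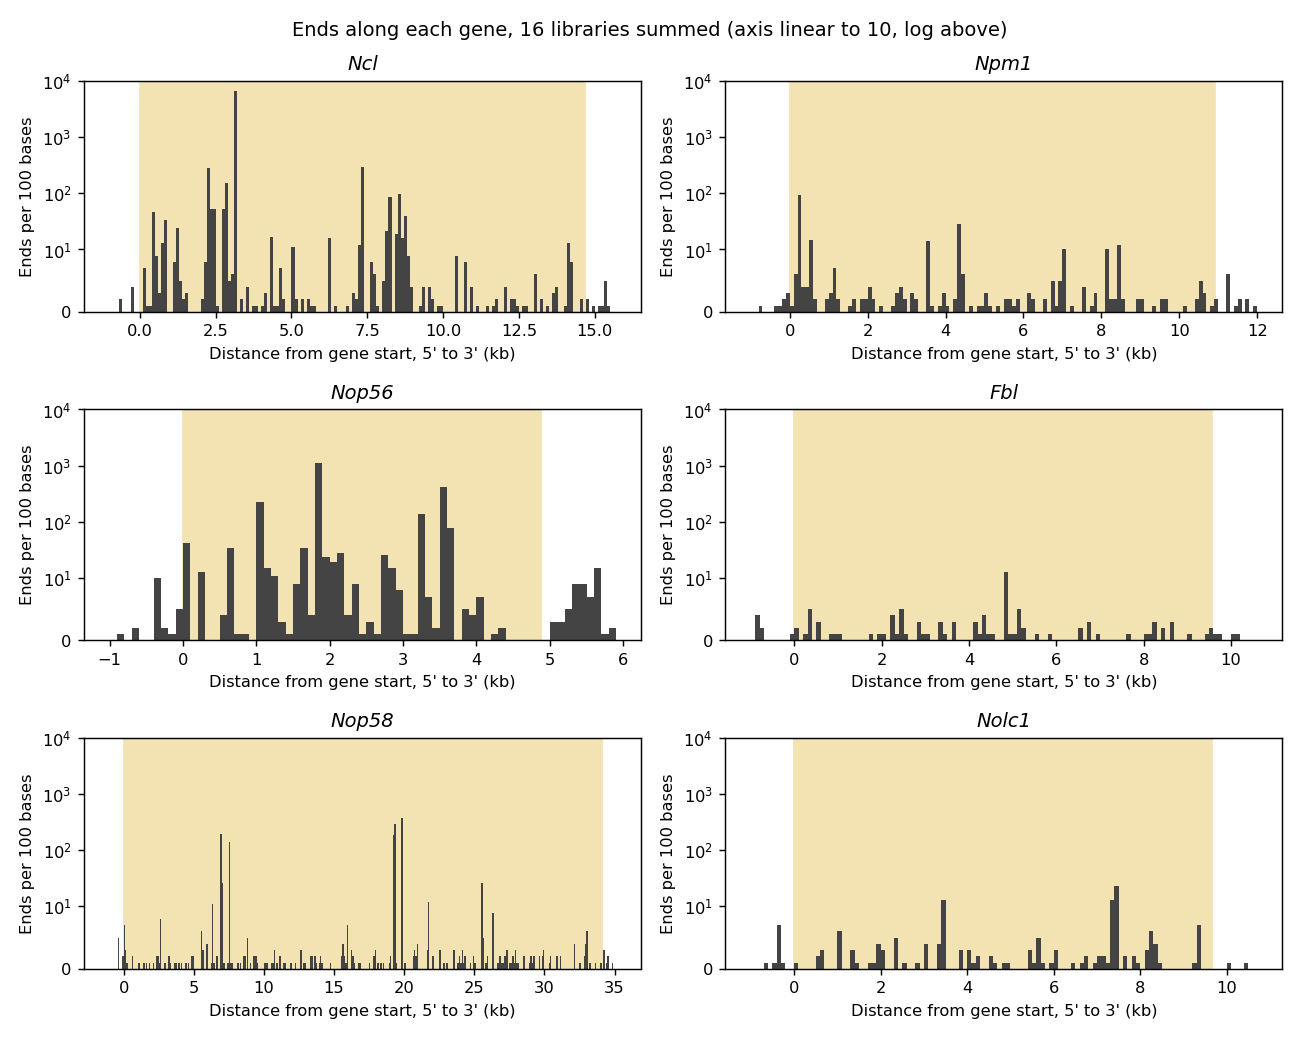
Ends per 100 bases along each gene from 1 kb before its start to 1 kb past its end (shaded body, distance in kb, vertical axis linear to 10 and logarithmic above, 16 libraries summed). The tallest peak in Ncl holds Snord82 and that in Nop56 holds Gm24451, and the rise near the start of Npm1 is its first exon with 91 ends.

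**Figure D5:**
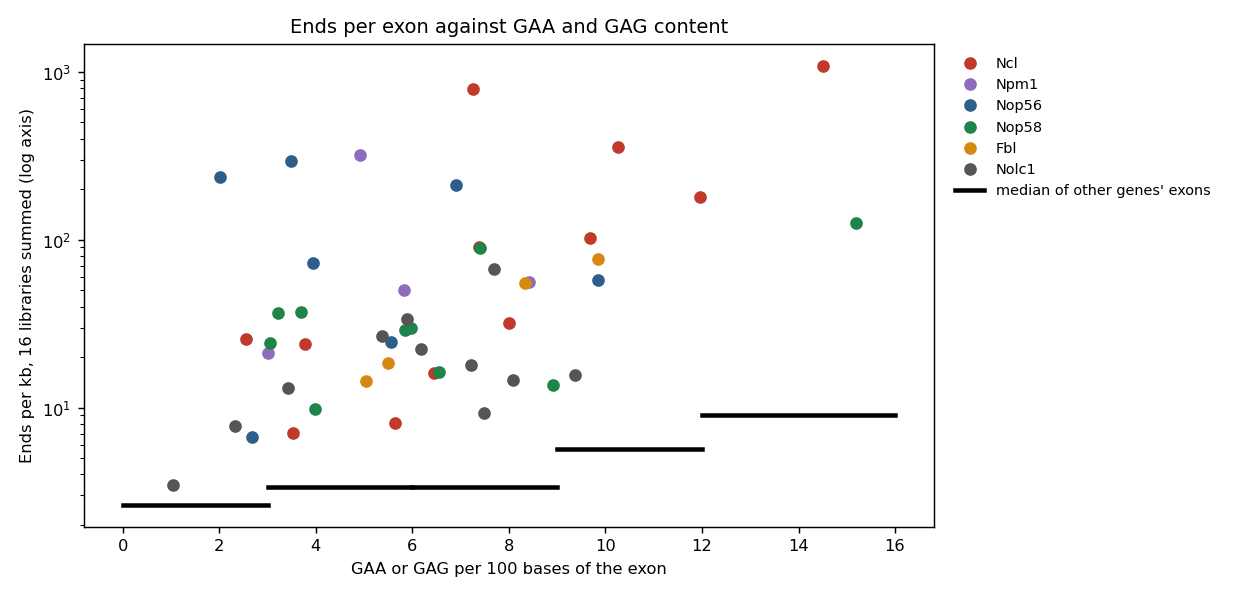
Ends per kb (log axis) of each exon of at least 100 bases of the 6 genes with at least 1 end, against GAA or GAG triplets per 100 bases, with black bars at the median of exons of other genes in 5 ranges of triplet content. Ncl exon 4 is the highest point at 1086 ends per kb, and the medians of other genes' exons run between 2.64 and 9.01 ends per kb.

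The comparison of lines asked whether shHMGB1 and shCTRL cells differed in ends at these genes, averaged over 4 doses. In shHMGB1 libraries, replicates 1 and 2 of Ncl had 651 and 750 CPM without irradiation, 748 and 525 CPM after 3 Gy, 550 and 531 CPM after 5 Gy, and 470 and 676 CPM after 10 Gy. The values of shCTRL libraries were 678 and 1076 CPM for the unirradiated pair, 793 and 2153 CPM after 3 Gy, 980 and 1533 CPM after 5 Gy, and 567 and 813 CPM after 10 Gy. All 8 shHMGB1 libraries lay at or below 750 CPM, a level that 6 of 8 shCTRL libraries exceeded, and the groups overlapped. The mean was 612 ± 108 CPM in shHMGB1 libraries and 1074 ± 527 CPM in shCTRL libraries (SD, n = 8 each). Depth also differed between lines, and shHMGB1 libraries held at least 697315 ends. The shCTRL libraries of 0 Gy, 5 Gy and 3 Gy replicate 2 held 132390 to 529208 ends and had 678 to 2153 CPM. The other shCTRL libraries held 852250 to 936610 ends and had 567 to 813 CPM. Line and depth went partly together and cannot be told apart here, and an effect of depth was not tested. On the log2 scale Ncl was lower by -0.66 ± 0.16 (SE) in shHMGB1 cells, with an adjusted p of 0.0364 in edgeR's quasi-likelihood test over 12848 gene bodies, of which 28 or 0.218% were called at 0.05. Of these, 21 were lower and 7 higher in shHMGB1 cells. Ncl was the 1 gene called of the 5 that passed the filter on low counts, and Fbl did not pass it. DESeq2, which called 34 bodies or 0.265%, also called Ncl and none of the other 4. Since the set was proposed with results of these libraries in view, these p-values are not independent support for its choice. They may also be too small, since libraries of the same replicate number deviated together within a line. Each line may therefore hold only 2 independent units.

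The call is marginal and was lost without most single libraries. With any 1 library left out the log2 difference stayed between -0.79 and -0.50, but the adjusted p was under 0.05 only without shHMGB1 3 Gy replicate 1, shCTRL 0 Gy replicate 1, shCTRL 3 Gy replicate 1 or shCTRL 5 Gy replicate 1. Without any one of the other 12 libraries, shCTRL 3 Gy replicate 2 among them, it lay between 0.0531 and 0.180 in edgeR. Replicate numbers mattered too: Ncl averaged 605 ± 121 CPM in shHMGB1 and 755 ± 176 CPM in shCTRL libraries of replicate 1, and 620 ± 111 and 1394 ± 587 CPM in those of replicate 2 (SD, n = 4 each). Dose by dose the log2 differences of Ncl between lines were -0.32 ± 0.32 without irradiation, -0.90 ± 0.32 after 3 Gy, -1.18 ± 0.32 after 5 Gy and -0.26 ± 0.31 after 10 Gy. None passed edgeR's test (adjusted p 0.992, 0.715, 0.189 and 1.00), which called 0, 1, 2 and 0 of 12848 bodies in these comparisons, or 0%, 0.00778%, 0.0156% and 0%.

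Snord82, the exons and the introns of Ncl each had a lower mean in shHMGB1 libraries, and none of the 3 passed the test on its own. Of the 20 regions of the 6 genes that could be tested, edgeR called 0, and 5 had an unadjusted p under 0.05, as had 1341 of all 13904 regions. Snord82 had 493 ± 103 CPM in shHMGB1 libraries, from 355 to 648 with a median of 478, and 890 ± 464 CPM in shCTRL libraries, from 407 to 1849 with a median of 741 (SD, n = 8 each). Its log2 difference was -0.66 ± 0.16 with an adjusted p of 0.0514 in edgeR over 13904 exon, intron and snoRNA regions, of which 20 or 0.144% were called. The call of Snord82 depended on the setting: with the replicate number as a block its adjusted p was 0.0145 in edgeR, with DESeq2's size factors it was 0.0323 in edgeR, and DESeq2, which called 32 regions or 0.23%, gave 0.00519. Without shHMGB1 3 Gy replicate 1 it was 0.0125, and without shCTRL 3 Gy replicate 1 it was 0.00223. Without TMM it was 0.0233 in edgeR. With a block within each line, which removes spread between replicate numbers, it was 5.57e-05 in edgeR. Snord82 stayed uncalled in 16 of 23 alternatives, with an adjusted p of up to 0.224, among them the other 14 that left out 1 library. Exons of Ncl had 73.2 ± 12.2 CPM in shHMGB1 and 116 ± 40.9 CPM in shCTRL libraries, a log2 difference of -0.49 ± 0.16 (edgeR adjusted p 0.241). Its introns had 13.3 ± 2.95 and 23.5 ± 12.3 CPM, a difference of -0.62 ± 0.30 (edgeR adjusted p 0.506). With ends in snoRNA genes left out, the body of Ncl differed by -0.56 and its edgeR adjusted p was 0.111. Exons 3 and 4 together, looked at after their counts were seen and given without a test, had 40.4 ± 6.75 CPM in shHMGB1 libraries, from 32.6 to 49.6, and 76.3 ± 29.2 CPM in shCTRL libraries, from 43.3 to 129.

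The other genes did not pass the test between lines. Nop56 had 185 ± 42.1 CPM in shHMGB1 libraries, from 123 to 241 with a median of 174, and 272 ± 118 CPM in shCTRL libraries, from 147 to 495 with a median of 227. Its log2 difference was -0.42 ± 0.15 (edgeR adjusted p 0.310), and that of its main snoRNA, Gm24451, was -0.51 ± 0.17 (edgeR adjusted p 0.221), with 74.3 ± 17.3 CPM in shHMGB1 and 121 ± 50.9 CPM in shCTRL libraries. Nolc1 had 10.5 ± 6.97 CPM in shHMGB1 and 17.2 ± 7.20 CPM in shCTRL libraries, a difference of -0.81 ± 0.34 (edgeR adjusted p 0.411) on 3 to 20 ends per shHMGB1 and 1 to 17 per shCTRL library. Npm1 ran from 19.8 to 44.8 CPM with a median of 29.7 in shHMGB1 libraries, and from 12.5 to 83.7 CPM with a median of 24.1 in shCTRL libraries, and the difference was 0.14 ± 0.24 (edgeR adjusted p 0.898). Nop58 averaged 135 ± 33.2 CPM in shHMGB1 and 150 ± 48.5 CPM in shCTRL libraries, with a difference of -0.03 ± 0.15 (edgeR adjusted p 0.968). Fbl, on 1 to 12 ends per library, had 9.21 ± 4.28 CPM in shHMGB1 and 7.39 ± 1.36 CPM in shCTRL libraries and was too low to be tested. The means of Nop58 differed in direction between regions: its snoRNA genes had 103 ± 31.6 CPM in shHMGB1 and 124 ± 48.7 CPM in shCTRL libraries, whereas its introns had 17.4 ± 8.33 and 13.1 ± 7.54 CPM, a log2 difference of 0.59 ± 0.34 (edgeR adjusted p 0.587). All these ranges overlapped.

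Irradiation was compared with 0 Gy over both lines. None of the 5 tested bodies was called by edgeR, none had an unadjusted p under 0.05 and DESeq2 called none, where edgeR called 3 of 12848 gene bodies, or 0.0233%. Ncl had 470 to 2153 CPM in the 12 irradiated libraries, with a median of 712, and 651 to 1076 CPM in the 4 at 0 Gy, with a median of 714, a log2 difference of 0.05 ± 0.18 (edgeR adjusted p 0.977). Nop56 averaged 220 ± 105 CPM in irradiated and 256 ± 72.5 CPM in 0 Gy libraries, a difference of -0.27 ± 0.17 (edgeR adjusted p 0.763). The differences of Npm1, Nop58 and Nolc1 were -0.10 ± 0.28, -0.03 ± 0.17 and -0.07 ± 0.39 on the log2 scale. In Ncl the exons had 103 ± 39.2 CPM in irradiated and 71.3 ± 10.6 CPM in 0 Gy libraries, a log2 difference of 0.49 ± 0.20 (edgeR adjusted p 0.601), and Snord82 had a median of 573 CPM in irradiated and 604 CPM in 0 Gy libraries, a difference of -0.03 ± 0.18 (edgeR adjusted p 0.988). The means of Snord82 ran the other way, at 700 ± 437 CPM in irradiated and 667 ± 183 CPM in 0 Gy libraries, with 1849 CPM in shCTRL 3 Gy replicate 2. Set against 0 Gy dose by dose, Ncl differed by 0.34 ± 0.22 log2 after 3 Gy, 0.12 ± 0.22 after 5 Gy and -0.31 ± 0.22 after 10 Gy, and Nop56 by -0.08 ± 0.21, -0.15 ± 0.21 and -0.56 ± 0.21, with edgeR adjusted p of 0.757 or more for these 6 values. In these comparisons, which share the 0 Gy libraries, edgeR called 0.00778%, 0.00778% and 0.0156% of gene bodies. None of the 20 tested regions of these genes was called by edgeR or DESeq2, and 1 had an unadjusted p under 0.05, as had 974 of all 13904 regions, where edgeR called 0.0144% of all regions.

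The response to irradiation was also set between lines, as the irradiation difference in shHMGB1 cells minus that in shCTRL cells. It was -0.68 ± 0.35 log2 for Nop58 (edgeR adjusted p 0.946) and -0.46 ± 0.36 for Ncl (edgeR adjusted p 0.986). edgeR and DESeq2 called 0 of 12848 gene bodies for this term, and 674 had an unadjusted p under 0.05 in edgeR. The unadjusted p of Nop58 was 0.0534.

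Other genes of the same pathways were compared by the density of their exons, which in none of them reached the 9.51 CPM per kb of Ncl. Over the whole body Ppan, which hosts 2 snoRNAs, was denser than Ncl, at 95.4 CPM per kb against 57.4. Of 16 other genes for snoRNP core and assembly proteins, the median exon density was 0.575 CPM per kb. For 15 RNA polymerase I genes it was 1.34, and for 70 genes of rRNA processing and ribosome assembly 1.15, against 0.347 for all protein-coding genes. The densest by exon were Znhit6 (9.47 CPM per kb), a snoRNP assembly factor, Ppan (5.11), Tsr1 (4.53), Nop2 (4.50), Taf1d (4.33), Polr1c (2.99), Cd3eap (2.86), Ruvbl2 (2.53) and Nhp2 (2.47). No gene of these lists was called by edgeR or DESeq2 in any of the 3 comparisons. Between lines 10, 13 and 55 of them were tested, of which 1, 2 and 1 had an unadjusted p under 0.05 in edgeR, with 0, 2 and 5 for irradiation and 0, 0 and 4 for the response. Over all 12848 gene bodies the numbers were 1245 between lines, 923 for irradiation and 674 for the response. Between lines their median log2 differences were -0.14, -0.17 and -0.10, against 0.03 over all gene bodies.

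Compared with the 274 other protein-coding genes that host an intronic snoRNA, Ncl, Nop56 and Nop58 had a large share of their ends in snoRNA genes. Among the 262 other hosts with at least 50 ends the median share was 1.85%, and 55 had a share above 50%. Among the densest other hosts over the gene body were Rpl13a (405 CPM per kb), Rpl7a (380), Rps12 (140) and Gm45713 (126), which overlaps Rpl13a. All of these but Gm45713 are ribosomal protein genes, and the snoRNA shares of the 4 hosts were 89.0% to 98.8%.

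Across the 16 libraries the level of Nop56 followed that of Ncl, with a Pearson correlation of log2 CPM of 0.89, and that of Nop58 followed Nop56 at 0.74, while Npm1 and Nolc1 had -0.39. These points share library size and the small shCTRL 3 Gy replicate 2 library. Of 1187 protein-coding genes with a mean of at least 50 ends, with the 6 genes, genes overlapping them and Gm and Rik gene models left out, those nearest to Ncl were Ank (0.90), Shank2 (0.88) and Rpl27a (0.87), of which Rpl27a alone hosts intronic snoRNAs. Those nearest to Nop56 were Eif4a2 (0.95), Rpl13a (0.95) and Sf3b3 (0.92), and these 3 are hosts. Nearest to Nop58 were Rpl13 (0.83), Tnpo2 (0.82) and Rps3a1 (0.80), which are hosts as well. Npm1 was nearest to Btbd11 (0.68), Stk3 (0.67) and Gnb1 (0.67), and Nolc1 to Stard13 (0.81), Nav1 (0.78) and Pcdh19 (0.75), none of which holds an intronic snoRNA. The share of hosts among all 1187 genes is not given here. Which of the nearest genes are hosts is therefore only a description, and whether hosts follow hosts was not tested.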

How the data were processed

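BLISS libraries of AB22 cells entered as lists of ends that the authors deposited, 1 per library. The build mm10 and the tools BWA 0.7.5-r404, bedtools, Trimmomatic 0.32, SAMtools and UMI-tools are listed, per the submitters' processing notes; their order and settings are not given in the sources used here. Judged from their values, the files the authors deposited hold raw counts of ends per cluster and each end's position, with no strand, as whole numbers whose totals differ between libraries. Depth ran from 132390 to 1020770 ends per library. RNA-seq and ATAC-seq of the series were not analysed here.

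Positions were turned to 1-based and ends on the main chromosomes were counted over GENCODE M21 (mm10) gene bodies, over exons of all transcripts, over introns without small RNA genes and over each snoRNA gene. Ends shared by overlapping genes were given to both, and Idh3b overlaps the 3′ end of Nop56. edgeR 4.0.16 (R 4.3.3) fitted 8 group means to all features with TMM, filterByExpr and quasi-likelihood tests, and p-values were adjusted by the Benjamini-Hochberg method over all features tested. The fit was tested on simulated data. Members and gene lists were chosen with earlier results of these data known. Named genes were the 6 members, their snoRNAs, the 3 genes most correlated with each, the 3 listed genes with the densest exons per list and the 5 densest other hosts, of which 1 is not reported here. Alternatives were DESeq2 1.42.0, other scalings, no filter, distinct positions, at most 3 ends per position, snoRNA ends left out, replicate blocks and leaving out libraries. Libraries of the same replicate number deviated together within a line, where all 6 pairs of doses in each line had a correlation over 0.1 (0.231 to 0.385 in shCTRL, 0.222 to 0.377 in shHMGB1). Between lines 6 of 16 pairs were over 0.1, with a median of 0.0297 and a range of -0.277 to 0.215. The numbers thus pair libraries within a line, each line may hold only 2 independent units, and p-values between lines may be too small.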

Additional observations from a re-analysis of the deposited data

Results flagged for a closer look

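Among the 8 libraries of a line, a single value stood apart from the others by more than the 95% limit of Dixon's gap test for 10 of 72 sets of values. Chance flags about 1 set in 20 where sets are independent and values normally distributed. These sets overlap and come from libraries of unequal depth, so 10 of 72 cannot be read against that rate. In shCTRL, 3 Gy replicate 2 was the highest library for Npm1 (83.7 CPM, next 38.1), the introns of Npm1 (45.7, next 20.5), Snord57 of Nop56 (122 CPM, next 55.2) and Gm26293 of Nop58 (53.3, next 20.8), and it is the smallest library, in which the body of Npm1 had 11 ends. Also in shCTRL, 0 Gy replicate 2 was highest for the introns of Nop56 (15.3 CPM) and the exons of Nolc1 (23.0 CPM), 0 Gy replicate 1 for Fbl (10.3 CPM) and 5 Gy replicate 2 for Snora75 of Ncl (30.5 CPM). In shHMGB1, 0 Gy replicate 2 was highest for the introns of Nop58 (35.2 CPM) and 10 Gy replicate 2 for the introns of Nolc1 (14.5 CPM).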

How the results depend on the processing

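Over all 55 log2 differences of these genes and their regions, 1161 of 1273 values under an alternative kept direction and side of the threshold, 91 changed sign (72 with 1 library left out), 13 lost a call and 8 gained one. None of the 91 was called before or after. The 20 followed below, of which 436 of 486 values kept both, were chosen after all 55 had been seen. Differences at single doses were not recomputed. Ncl between lines stayed negative in all 26 alternatives (adjusted p 1.58e-05 to 0.180) and lost its call in 13, 12 of them with 1 library left out and the other with snoRNA ends left out (-0.56, adjusted p 0.111). Leaving out 1 library gave -0.79 to -0.50 for Ncl and -0.78 to -0.51 for Snord82. Gene bodies called between lines (28) numbered 67 over distinct positions, 136 with a replicate block within each line and 17 without 3 Gy libraries, a setting chosen after seeing the data. Leaving out 1 library gave 5 to 114 gene bodies and 2 to 121 regions between lines, 1 to 10 gene bodies and 0 to 7 regions for irradiation, and 0 to 1 gene bodies for the response. Without TMM, 3 of 22 bodies called between lines were higher, against 7 of 28. Regions called between lines (20) numbered 5 without the filter, 32 in DESeq2, 39 with a replicate block and 139 with a block within each line. For irradiation, bodies called (3) numbered 0 in DESeq2, 1 with at most 3 ends per position, 19 with a block within each line and 6 without 3 Gy libraries, and regions called (2) numbered 1 in DESeq2, 1 over distinct positions, 4 with a replicate block and 23 with a block within each line. With the replicate block, Ncl differed by -0.64 (adjusted p 0.0125, edgeR) and 37 bodies were called. The block within a line removes spread between replicate numbers on which the comparison of lines rests. It also brought in Gm24451 (-0.53, adjusted p 0.0370, edgeR).

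Of all 55 differences, 32 changed sign under at least 1 alternative. Among the 20 followed here, those that changed sign never passed the test, and they were near 0 except for the response of Ncl. Between lines Nop58 was 0.0057 without the filter, 0.37 without snoRNA ends and -0.14 to 0.049 with 1 library left out, and Npm1 was -0.063 over distinct positions and -0.10 to 0.36 with 1 library left out. For irradiation, Ncl was -0.10 and Nolc1 0.19 without 3 Gy libraries, Snord82 was 0.011 without the filter, and with 1 library left out Ncl ran from -0.059 to 0.17, Npm1 from -0.26 to 0.076, Nop58 from -0.11 to 0.039, Nolc1 from -0.34 to 0.46 and Snord82 from -0.14 to 0.10. The response of Ncl, -0.46 with all ends counted, was 0.014 over distinct positions. The cause was not tested. Depth limits Fbl and Nolc1 most, with 1 to 12 and 1 to 20 ends per library.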

Other observations

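In genes outside the set, the relation of GAA and GAG content to ends depended on the measure. Over 152604 exons of at least 100 bases with no small RNA gene, the median exon outside these 6 genes had 2.64 ends per kb with up to 3 such triplets per 100 bases, 3.35 with 3 to 6, 3.36 with 6 to 9, 5.68 with 9 to 12 and 9.01 with over 12. The share of exons above 100 ends per kb was 1.10%, 1.16%, 2.16%, 4.13% and 10.1% in these ranges. The share with any end showed no steady rise, at 53.8%, 58.1%, 51.6%, 53.4% and 59.9%. With all exons of a range pooled, the range poorest in triplets was the densest, at 81.8 ends per kb, against 8.56, 15.3, 24.3 and 52.7 in the others. Counting each position once per library and summing the 16 libraries, the pooled values were 9.37, 6.86, 12.1, 19.2 and 40.5 per kb. Ncl exon 4 is in the last range and its 1086 ends per kb stood far above that median, as did Nop58 exon 14 with 127 ends per kb, whereas Npm1 exon 1 had 319 ends per kb with 4.91 triplets per 100 bases. Counted in that way, once per library, these exons had 624, 127 and 144 per kb. Nop56 exons 11 and 12, with 11.9 and 8.63 triplets per 100 bases, had 0 ends. Exons share genes and libraries, and these values are a description with no test.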
